A study of Mus musculus with 30 samples.

Results

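The genes described here are 10 mouse genes that are transcribed when the ERK kinases are active and that, for the most part, switch ERK signalling off again. They were chosen by name from 3 families and 1 transcription factor: the dual-specificity phosphatases Dusp1, Dusp4, Dusp5 and Dusp6, the Sprouty genes Spry1, Spry2 and Spry4, the Spred genes Spred1 and Spred2, and Etv5. They are 10 of 55487 genes in the count table, and all 10 were among the 15907 genes with enough counts to be tested. The choice went by gene name and family, although results of these data were already known when it was made.

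As background, growth factor receptors activate Ras, which turns on the kinases Raf, MEK and ERK in sequence. Active ERK enters the nucleus and drives transcription of its own attenuators: phosphatases that remove the activating phosphates from ERK, Sprouty proteins that act between the receptor and Raf, and Spred proteins that recruit the Ras inactivator neurofibromin to the membrane. In muscle, ERK signalling is associated with proliferation of myoblasts, and Spry1 is known for its part in the quiescence of muscle stem cells.

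The measurements came from C2C12 myotubes, multinucleated cells formed by fusion of a mouse myoblast line, here without genetic modification. Myoblasts were differentiated for 4 days in low-glucose medium with 2% horse serum and then kept for a further 4 days in 1 of 5 media, with 6 libraries in each group. The 5 groups were continued 2% horse serum (2% HS), the same low-glucose medium without serum (serum deprivation, SD), SD with 100 nM metformin (MET), SD with 500 nM leucine (LEU), and SD with both agents (MET+LEU). All groups thus shared 1 cell line and the same 4 days of differentiation, and no group combined an agent with serum.

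Total RNA was depleted of ribosomal RNA and sequenced, and libraries held between 12784960 and 19604103 counts on genes. Myotube markers were abundant in all groups, with the myogenic factor Myog at a median of 1021 to 1061 CPM in each group and the actin gene Acta1 at 2644 CPM or more in every library. Adgre1, a macrophage marker, had no count in any library (3 counts, the most that a count of 0 allows, would be 0.153 to 0.235 CPM). The immune and endothelial markers, Adgre1 among them, summed to 1.95 to 4.12 CPM. The adipocyte markers summed to at most 0.268 CPM and the osteoblast markers to 108 to 135 CPM. Only 1 of the 5 osteoblast markers had enough counts to be tested. The satellite cell factor Pax7, which reserve myoblasts in these cultures express, ran from 131 to 196 CPM. MET+LEU replicate 6 stood apart. Nuclear rRNA genes took 5.85% and mitochondrial rRNA genes 7.64% of its counts, against at most 1.96% and 0.76% elsewhere. For the feedback genes, values without this library are given where leaving it out changed a call. Calls of marker genes and of genes in the other pathway lists were not checked without it. Over all tested genes, 2931 passed in MET+LEU vs. SD with this library and 2175 without it. CPM values are counts scaled to a common library total with TMM factors, and in bulk RNA fewer cells of a type and less RNA per cell cannot be told apart. The labels do not say whether the 6 libraries of a group came from separate cultures, so p-values measure the spread between these libraries, which may be technical.

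The 10 genes spanned a wide range of levels. Per kilobase of exon, Spry2 was the highest in 2% HS at 51.7 ± 2.29 CPM per kilobase (SD, n = 6), above 95.7% of all tested genes. Dusp1 (16.5 ± 0.674) and Spry1 (14.6 ± 0.896) followed, and their libraries overlapped on this scale. Spred1 (10.8 ± 0.471) and Spred2 (10.7 ± 0.676) came next and did not differ beyond their spread. Dusp4 (7.84 ± 0.710), Dusp6 (7.58 ± 0.389) and Etv5 (7.25 ± 0.677) formed a further overlapping set. Dusp5 (3.28 ± 0.404) and Spry4 (1.44 ± 0.219) were the lowest, and they were the only members below the median of all tested genes, which was 4.53 CPM per kilobase. With the longest transcript as the length, Dusp1 was at 23.6, Spred1 at 12.2 and Dusp6 at 8.49 CPM per kilobase. On that length Dusp1 (lowest 2% HS library 22.2) did not overlap Spry1 (highest 16.3), and the Dusp6 mean lay above that of Dusp4. The order and overlaps therefore depend in part on the length used. Counts per library ran from 1317 to 2244 for Spry2 but from 59 to 150 for Dusp5 and from 82 to 189 for Spry4, so the lowest genes carried the most counting error.

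**Figure D1:**
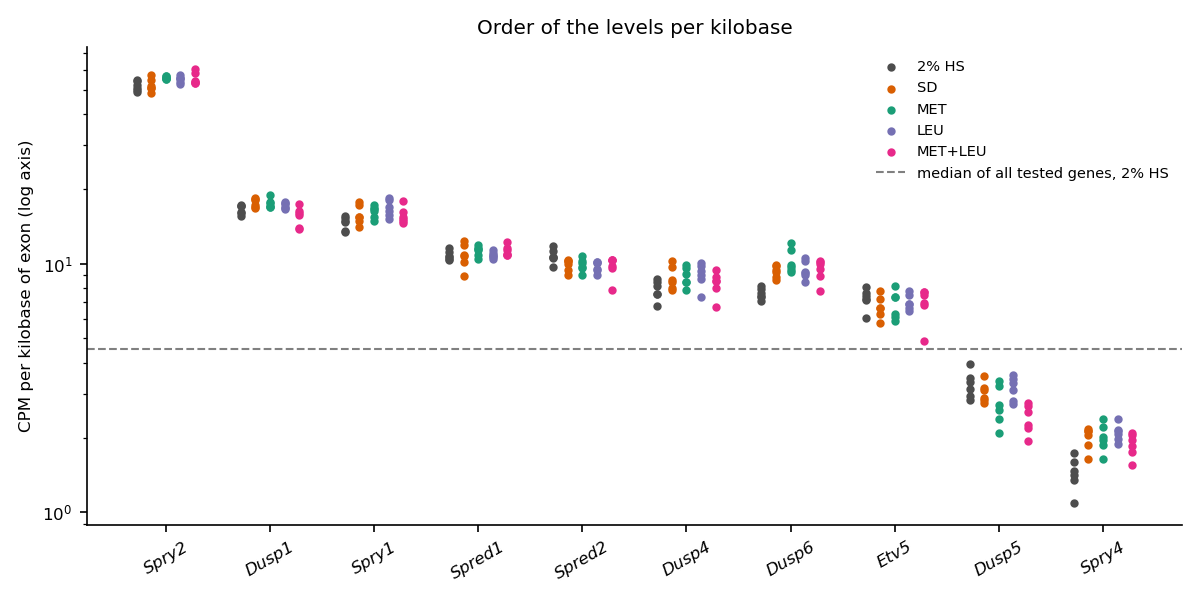
Level of each gene in CPM per kilobase of exon (log axis), 1 point per library, coloured by group, genes ordered by their mean in 2% HS. Spry2 lies far above the others, and Dusp5 and Spry4 lie below the dashed line, the median of all tested genes in 2% HS (4.53 CPM per kilobase).

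The phosphatases are described first. Dusp1 encodes a nuclear phosphatase of p38 and JNK as well as ERK (chr17:26505590-26562128, minus strand), Dusp4 a nuclear phosphatase of ERK and JNK (chr8:34807297-34819894, plus strand), Dusp5 a nuclear phosphatase specific for ERK (chr19:53529109-53542431, plus strand), and Dusp6 a cytoplasmic phosphatase specific for ERK (chr10:99263231-99267489, plus strand), in GRCm38 with GENCODE M21 gene models. Exons of Dusp1 overlap those of Ergic1 on the other strand, and exons of Dusp5 overlap the antisense gene AC137853.2. Because the strand setting of the counting is not given in the sources used here, the reads of these pairs may not be fully separated.

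Promoter windows of 300 bases, 250 before the RefSeq start and 50 after it, were found for 8 of the 10 genes (RefSeq, GRCm38.p6). Those of Dusp1, Dusp5 and Dusp6 are shown because these phosphatases passed the threshold in comparisons below. Dusp4, which also passed in 1 comparison, had no window in the table used here. Capitals mark the cAMP response element TGACGTCA, its core TGACG on either strand, and the CArG box that serum response factor (Srf) binds. The windows lie at chr17:26508423-26508722 (minus strand), chr19:53528895-53529194 (plus strand) and chr10:99262981-99263280 (plus strand). That of Dusp1 lies inside the GENCODE M21 gene model given above, so its RefSeq start is not the outermost start of that model.
Dusp1: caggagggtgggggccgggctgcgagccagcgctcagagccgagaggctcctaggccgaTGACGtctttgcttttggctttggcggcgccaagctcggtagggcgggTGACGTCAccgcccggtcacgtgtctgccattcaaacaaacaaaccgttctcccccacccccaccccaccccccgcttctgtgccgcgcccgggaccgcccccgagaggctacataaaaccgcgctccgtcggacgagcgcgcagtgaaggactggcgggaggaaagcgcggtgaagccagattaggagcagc
Dusp5: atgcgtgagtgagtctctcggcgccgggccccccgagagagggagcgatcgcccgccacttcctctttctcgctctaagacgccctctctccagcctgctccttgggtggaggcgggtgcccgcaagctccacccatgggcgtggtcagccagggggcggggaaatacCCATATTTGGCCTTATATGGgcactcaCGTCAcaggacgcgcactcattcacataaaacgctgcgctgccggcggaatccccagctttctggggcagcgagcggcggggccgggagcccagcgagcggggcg
Dusp6: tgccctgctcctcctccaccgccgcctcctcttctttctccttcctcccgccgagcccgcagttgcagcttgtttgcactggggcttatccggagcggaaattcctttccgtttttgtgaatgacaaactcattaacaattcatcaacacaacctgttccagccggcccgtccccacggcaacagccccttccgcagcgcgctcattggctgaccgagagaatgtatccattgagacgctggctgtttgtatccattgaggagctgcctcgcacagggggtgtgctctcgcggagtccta
The Dusp1 window held TGACGTCA once, 143 bases before the start, as 588 of 32851 mouse promoter windows did at least once (1.79%). It also held the core TGACG at 191 bases before the start and on both strands within the full element, a core found in 20.8% of windows. The Dusp5 window held 2 adjacent CArG boxes, at 82 and 72 bases before the start, and 1.63% of all windows held at least 1. A TGACG core on the minus strand lay 55 bases before the Dusp5 start. The Dusp6 window, which has no capitals, held none of these, nor the ETS sequence CCGGAA (14.9% of windows) or the AP-1 site TGANTCA (7.81%). All were searched on both strands. The shorter ETS core GGAA was not searched, and the printed Dusp6 window does hold it. Among the other members, the Spry2 window held CCGGAA once and the Spred2 window held TGACG once. These are letter matches, and no binding was measured.

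SD vs. 2% HS asks how withdrawal of serum, the source of growth factors in this medium, moved the feedback genes. Of the 10 genes, 2 passed the threshold (an edgeR adjusted p under 0.05), Dusp6 and Spry4, and both were higher in SD. Over all tested genes 27.8% passed in either direction, so the total count among the 10 was not above the background. The share of all genes that were higher was 13.9%, as was the share that were lower. Markers of cell state also differed between these groups. Of 7 myoblast markers 4 were lower in SD and none was higher (median log2 difference -0.28), and their summed level was 1241 to 1340 CPM in 2% HS and 995 to 1160 CPM in SD, without overlap and with none at 0. It was 873 to 1085 CPM in the other groups without serum. Of 7 proliferation markers 3 were higher in SD and none was lower (median 0.15), with overlapping sums of 198 to 232 CPM in 2% HS and 206 to 270 CPM in SD. Of 10 myotube markers 1 was higher and 3 were lower in SD (median -0.09), with overlapping sums of 11164 to 11975 CPM in 2% HS and 10041 to 11966 CPM in SD. The part of these markers in the differences from 2% HS was not tested.

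Dusp6 ran from 22.2 to 25.5 CPM in 2% HS, with a median of 23.5, and from 26.8 to 30.8 CPM in SD, with a median of 29.3. No SD library was as low as any 2% HS library. The difference was 0.29 on the log2 scale (SE 0.07), a fold of 1.23, with an adjusted p of 0.000545. In the other media without serum the Dusp6 medians were close to that of SD, at 30.8 CPM (MET), 28.95 CPM (LEU) and 30.5 CPM (MET+LEU).

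The 3 Sprouty genes encode membrane-associated inhibitors of receptor tyrosine kinase signalling, and they differed from each other in SD vs. 2% HS. Spry4 (on chromosome 18) ran from 5.19 to 8.23 CPM in 2% HS, median 6.85, and from 7.78 to 10.3 CPM in SD, median 9.92. The groups met only at their edges, with 5 of the 6 SD libraries above every 2% HS library. Spry4 rose by 0.48 (SE 0.10), a fold of 1.39 (adjusted p = 0.000255). Spry2 (chr14:105891947-105896819, minus strand) had nearly equal medians, 107.3 CPM in 2% HS and 106.9 CPM in SD, with a log2 difference of 0.02 and a 95% interval from -0.06 to 0.10. Spry1 (chr3:37639947-37644598, plus strand, with exons shared with Gm42922 on the other strand) ran from 39.0 to 45.3 CPM in 2% HS and from 40.9 to 51.4 CPM in SD, and its difference of 0.12 did not pass (adjusted p = 0.130). Dusp6 and Spry4 kept their calls in all 12 fits that left out 1 library of these groups and in all 7 other alternatives.

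The remaining members did not pass the threshold in this comparison. Dusp4 had medians of 21.4 CPM in 2% HS and 23.3 CPM in SD, and its log2 difference of 0.16 (SE 0.08) had an adjusted p of 0.116. Dusp1 had medians of 54.7 and 58.2 CPM (difference 0.09, adjusted p = 0.145), and Dusp5 medians of 8.01 and 7.38 CPM (difference -0.11, adjusted p = 0.510). Spred1 (chr2:117121374-117182279, plus strand) had medians of 72.6 and 73.1 CPM, and SD was its most variable group, from 60.4 to 83.8 CPM. Spred2 (chr11:19924375-20024026, plus strand) had medians of 49.0 and 46.6 CPM and a log2 difference of -0.12 (adjusted p = 0.0857), which passed without 2% HS replicate 6 (adjusted p = 0.0382) and when MET+LEU replicate 6 was left out of the fit of all groups (0.0322). Etv5 (chr16:22381309-22439719, minus strand), an ETS transcription factor of the PEA3 family whose gene is turned on by FGF and ERK signalling, had medians of 29.99 and 27.2 CPM and a difference of -0.10 (adjusted p = 0.403). At an unadjusted p under 0.05 the count was 5 of 10, beside 6028 of 15907 among all tested genes.

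**Figure D2:**
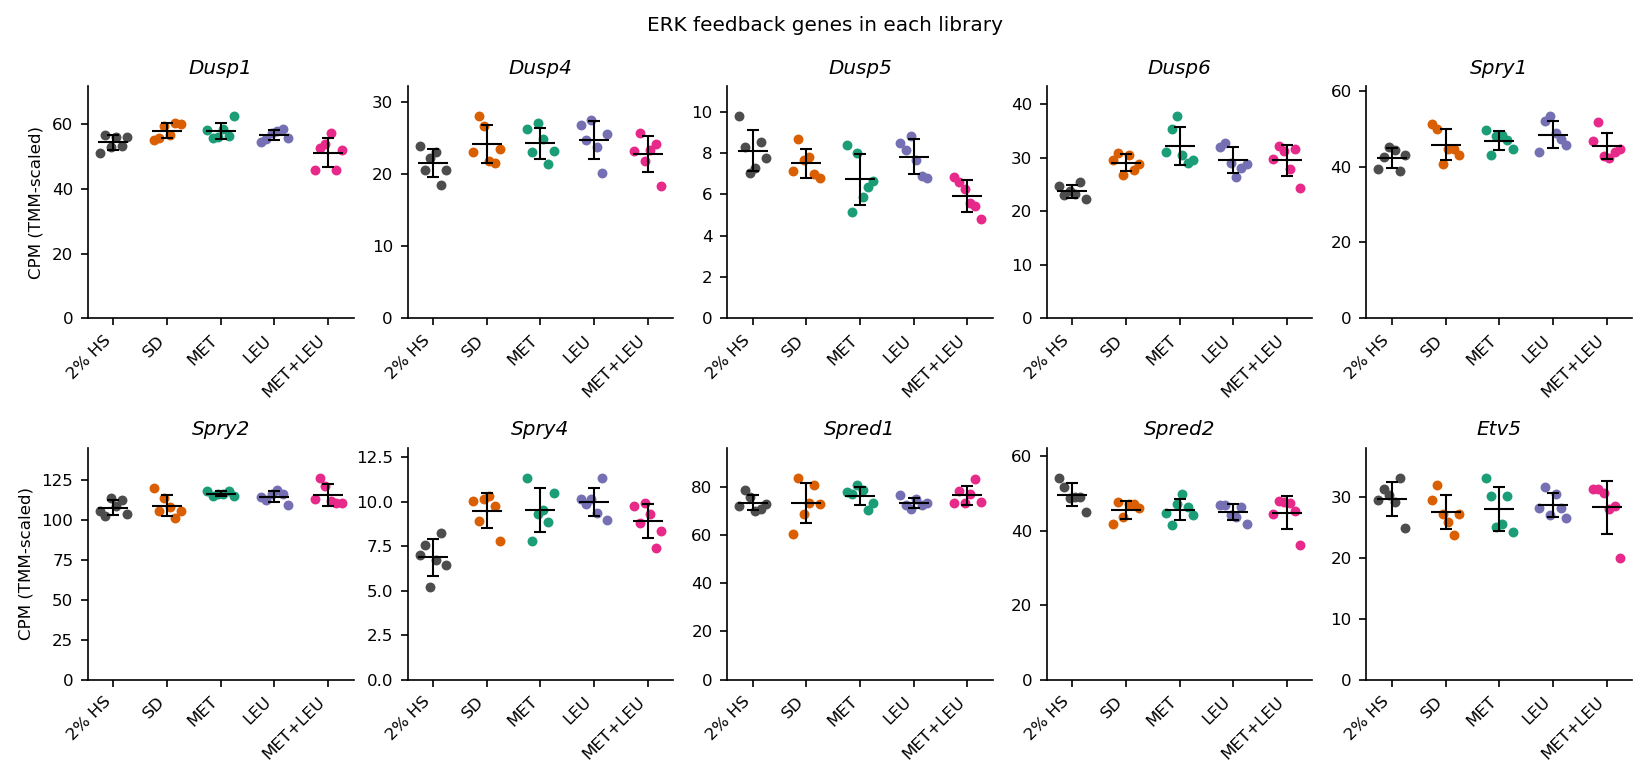
TMM-scaled CPM of each gene in each library, by group, with points spread sideways by replicate number, the mean as a horizontal bar and the SD as whiskers (n = 6). Dusp6 and Spry4 are lower in 2% HS than in the 4 groups without serum, and Dusp1 and Dusp5 are lowest in MET+LEU.

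MET vs. SD and LEU vs. SD ask what each agent did alone in medium without serum. Neither moved any of the 10 genes past the threshold with edgeR, DESeq2 or limma-voom, where the shares of all genes that passed were 0.157% (MET) and 0.553% (LEU). In MET vs. SD, 2 genes had an unadjusted p under 0.05, as did 1597 of all 15907 tested genes. They were Dusp6, with a log2 difference of 0.15 (95% interval 0.02 to 0.28, adjusted p = 0.424), and Spry2, with 0.10 (0.02 to 0.18, adjusted p = 0.377). Spry2 was nearly constant among MET libraries, from 115.3 to 118.6 CPM, while SD libraries ran from 101.3 to 119.9 CPM and covered that whole range. LEU vs. SD had no gene at an unadjusted p under 0.05, and the estimates ran from -0.03 for Dusp1 to 0.08 for Spry1. In Dusp5 the MET libraries spread widely, from 5.15 to 8.38 CPM, with 4 of 6 below every SD library and 2 among them (difference -0.16, adjusted p = 0.676).

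MET+LEU vs. SD, the combination against serum deprivation alone, had 2 of the 10 genes past the threshold, the phosphatases Dusp1 and Dusp5, and both were lower. Over all genes 18.4% passed in either direction, and 7.8% were lower. Whether the count of 2 among 10 genes exceeds these shares was not tested.

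Dusp1 ran from 55.2 to 60.5 CPM in SD, median 58.2, and from 45.8 to 57.3 CPM in MET+LEU, median 52.4. All 6 MET+LEU libraries were below the SD mean and 5 of them were below every SD library, the exception being replicate 4. Dusp1 fell by 0.18 on the log2 scale (SE 0.05), a fold of 0.885, with an adjusted p of 0.0054. The call held without each library in turn, including MET+LEU replicate 6 (-0.18, adjusted p = 0.00491), but in a fit of only the MET+LEU and SD libraries the adjusted p was 0.0596 for the same size (-0.17).

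Dusp5 ran from 6.78 to 8.70 CPM in SD, median 7.38, and from 4.78 to 6.82 CPM in MET+LEU, median 5.91. The ranges touched, with 5 of 6 MET+LEU libraries below every SD library. Dusp5 fell by 0.34 (SE 0.11), a fold of 0.79, with an adjusted p of 0.0293. This call rested on single libraries more than that of Dusp1. The adjusted p was 0.0773 without SD replicate 2, 0.0504 without MET+LEU replicate 4, 0.0519 without MET+LEU replicate 5 and 0.0773 without MET+LEU replicate 6. It was 0.0966 with limma-voom and 0.0588 in a fit of only these 2 groups. The log2 difference stayed between -0.39 and -0.30 without each library in turn.

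Proliferation markers also differed in MET+LEU vs. SD. Of the 7 in the list, 6 were lower, with a median log2 difference of -0.45. Their summed level was 206 to 270 CPM in SD and 163 to 196 CPM in MET+LEU, with none at 0. In LEU vs. SD 2 of the 7 were lower (median -0.30), where 0.321% of all genes were lower, and the sum in LEU was 176 to 204 CPM. Dusp1 and Dusp5 differed there by -0.03 and 0.05. The share of mitochondrial rRNA was 0.281% to 0.367% of counts in SD, 0.649% to 7.64% in MET+LEU and 0.501% to 0.710% in LEU. Of 10 myotube markers 3 were higher and 2 lower in MET+LEU vs. SD (median -0.02). The part of any of these in the Dusp1 and Dusp5 differences was not tested.

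The other 8 genes did not pass in MET+LEU vs. SD. Spry2 came nearest, with medians of 106.9 CPM in SD and 112.6 CPM in MET+LEU and a difference of 0.09 (95% interval 0.01 to 0.17, adjusted p = 0.123). Dusp6 and Spry4, the genes that were higher in SD than in 2% HS, had log2 differences of 0.02 (-0.11 to 0.15) and -0.09 (-0.29 to 0.11). The estimates were -0.08 for Dusp4, -0.01 for Spry1, 0.06 for Spred1, -0.02 for Spred2 and 0.04 for Etv5. Without MET+LEU replicate 6 they were -0.03 for Dusp4, 0.06 for Dusp6, 0.03 for Spred2 and 0.11 for Etv5, and none of these passed.

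**Figure D3:**
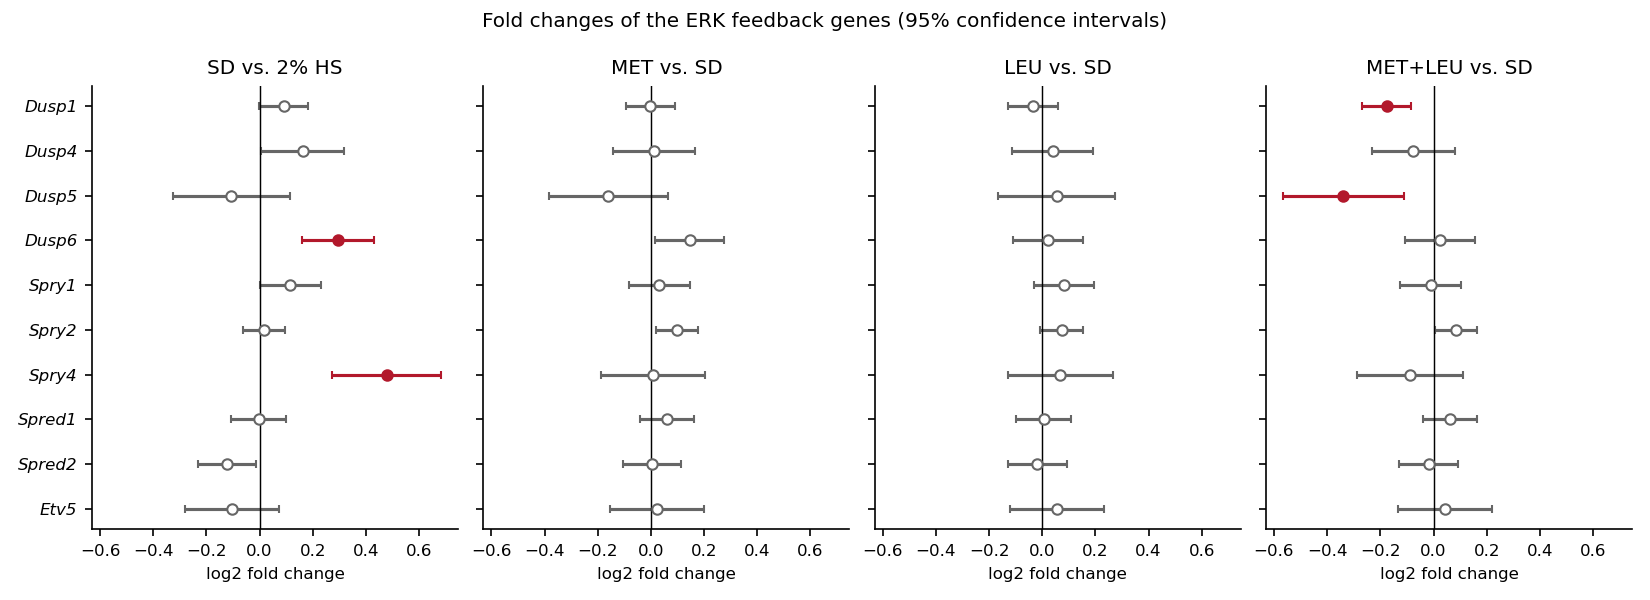
Log2 fold change of each gene in 4 comparisons, with 95% confidence intervals from the edgeR fit. Filled red points passed the threshold (Dusp6 and Spry4 in SD vs. 2% HS, Dusp1 and Dusp5 in MET+LEU vs. SD), open grey points did not, and no gene passed for MET or LEU alone.

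Each agent was also set against 2% HS, comparisons that share the same 6 serum libraries. In MET vs. 2% HS 4 of 10 genes were higher and none was lower. Over all genes 35.0% passed there, with 17.4% higher and 17.5% lower. In LEU vs. 2% HS 4 were higher and 1 lower (29.7% of all genes passed, 14.4% higher and 15.3% lower). In MET+LEU vs. 2% HS 3 were higher and 2 lower (42.3% of all genes passed, 22.1% higher and 20.3% lower). Whether these counts out of 10 genes differ from those shares was not tested. The count in MET vs. 2% HS was 7 when MET+LEU replicate 6 was left out of the fit of all groups, whose spread is shared. The 3 genes gained were Dusp4 (adjusted p = 0.0475), Dusp5 (0.0441) and Spred2 (0.0356), with log2 differences of 0.17, -0.27 and -0.12.

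Dusp6 was higher than in 2% HS by 0.44 in MET (SE 0.07, adjusted p = 4.43e-07), by 0.32 in LEU (SE 0.07, adjusted p = 0.000184) and by 0.32 in MET+LEU (SE 0.07, adjusted p = 0.000126). Its lowest MET library was at 28.97 CPM and its lowest LEU library at 26.4 CPM, both above the highest 2% HS library. In MET+LEU, replicate 6 was at 24.4 CPM, within the 2% HS range, and the other 5 libraries were above it. Spry4 was higher by 0.49 under metformin, by 0.55 under leucine and by 0.39 under both (SE 0.10 each), with adjusted p of 0.000151, 2.97e-05 and 0.00197. LEU libraries of Spry4 ran from 8.99 to 11.3 CPM and did not overlap 2% HS, whereas MET (7.78 to 11.3 CPM) and MET+LEU (7.40 to 9.90 CPM) each had 1 library within its range. These Dusp6 and Spry4 calls held without each library and in the other alternatives.

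Spry1 passed in LEU vs. 2% HS, with a log2 difference of 0.20 (adjusted p = 0.00615) and a range of 44.0 to 53.4 CPM in LEU. It passed narrowly in MET vs. 2% HS (0.15, adjusted p = 0.0380), with adjusted p between 0.0529 and 0.0966 without each of 2% HS replicates 1 and 5 and MET replicates 1, 3, 4 and 5. Spry2 was higher in MET vs. 2% HS by 0.11 (SE 0.04, adjusted p = 0.0217) with no overlap of the libraries, since 2% HS ended at 114.2 CPM and MET began at 115.3 CPM, but its adjusted p was 0.0588 without 2% HS replicate 2 and 0.0547 without 2% HS replicate 6. Spry2 in MET+LEU vs. 2% HS was higher by 0.10 (adjusted p = 0.0335), and this was between 0.0548 and 0.187 without each of 2% HS replicates 1, 2, 4 and 6 and MET+LEU replicates 1, 2 and 3. In LEU vs. 2% HS Spry2 differed by 0.09 (adjusted p = 0.0853, or 0.0478 without 2% HS replicate 3), and it also passed with limma-voom and in a fit of only these groups.

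Dusp5 was lower in MET+LEU vs. 2% HS by 0.45 on the log2 scale (fold 0.734, adjusted p = 0.00119). No MET+LEU library reached the lowest 2% HS library, at 7.02 CPM, and the call held without each library and in every other alternative tried. In MET vs. 2% HS its difference was -0.27 (adjusted p = 0.0560), which passed without 2% HS replicate 3 (0.0362), 2% HS replicate 4 (0.0438), MET replicate 1 (0.0182) or MET replicate 3 (0.0304). It also passed with limma-voom (0.0496) and in a fit of only these groups (0.0474), but not with DESeq2 (0.0517). LEU vs. 2% HS gave -0.05. Dusp1 did not pass in MET+LEU vs. 2% HS (-0.09, adjusted p = 0.136), or passed at 0.0204 without MET+LEU replicate 4.

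Spred2 was lower by 0.14 in both LEU vs. 2% HS (adjusted p = 0.0437) and MET+LEU vs. 2% HS (adjusted p = 0.0315). Neither call was stable. The adjusted p in MET+LEU vs. 2% HS was 0.0751 without 2% HS replicate 1 and 0.0998 without MET+LEU replicate 6 (0.0810 with limma-voom), and that in LEU vs. 2% HS was between 0.0543 and 0.135 without each of 2% HS replicates 1 to 5 and LEU replicates 3, 4 and 6 and did not pass with DESeq2. In MET vs. 2% HS Spred2 differed by -0.12 (adjusted p = 0.0801, or 0.0387 without 2% HS replicate 6 and 0.0426 without MET replicate 4), and it passed in a fit of only these groups (0.0389). Dusp4 passed in LEU vs. 2% HS alone (0.20, adjusted p = 0.0433), with adjusted p between 0.0501 and 0.122 without each of 2% HS replicates 2, 3, 5 and 6 and LEU replicates 1, 2, 3 and 6. Its difference in MET vs. 2% HS was 0.17 (adjusted p = 0.0761, or 0.0455 without 2% HS replicate 1 and 0.0397 without MET replicate 5), and it passed with limma-voom (0.0430) and in a fit of only these groups (0.0260) but not with DESeq2 (0.0727). Spred1 and Etv5 passed in no comparison.

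MET+LEU vs. MET and MET+LEU vs. LEU ask what the second agent added. Dusp1 was lower in MET+LEU vs. MET by 0.17 on the log2 scale (SE 0.05, adjusted p = 0.0130), the only one of the 10 genes to pass there, where 8.69% of all genes passed. The adjusted p was 0.0597 in a fit of only these groups. MET libraries ran from 55.7 to 62.6 CPM, and 5 of 6 MET+LEU libraries were below all of them. Against LEU, Dusp1 differed by -0.14 (adjusted p = 0.0558), which passed without LEU replicate 1 (0.0474) or MET+LEU replicate 2 (0.0499), 3 (0.0385) or 4 (0.0134), and with DESeq2 (0.0305) or limma-voom (0.0354).

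Dusp5 was the only one of the 10 genes to pass in MET+LEU vs. LEU, where 6.28% of all genes passed. LEU libraries ran from 6.77 to 8.85 CPM, with 5 of 6 MET+LEU libraries below them all. Dusp5 fell by 0.39 (SE 0.11, adjusted p = 0.0277). The adjusted p was 0.0565 without LEU replicate 1, 0.0775 without LEU replicate 3 and 0.0776 without MET+LEU replicate 6, 0.0508 with limma-voom and 0.0513 in a fit of only these groups. In MET+LEU vs. MET the Dusp5 difference was -0.18 (adjusted p = 0.363).

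The interaction of MET and LEU, the part of the log2 change under both agents that adding their separate changes does not give, passed for none of the 10 genes with edgeR, DESeq2 or limma-voom, where 0.0503% of all genes passed. Dusp1 had the only unadjusted p under 0.05, with an interaction of -0.14 (95% interval -0.27 to -0.01, adjusted p = 0.526). All 10 estimates were below 0, from -0.23 for Dusp5 to values near 0 for Spred1 and Spred2, beside a median of 0.01 over all tested genes. The estimates share their SD libraries, and none alone passed.

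**Figure D4:**
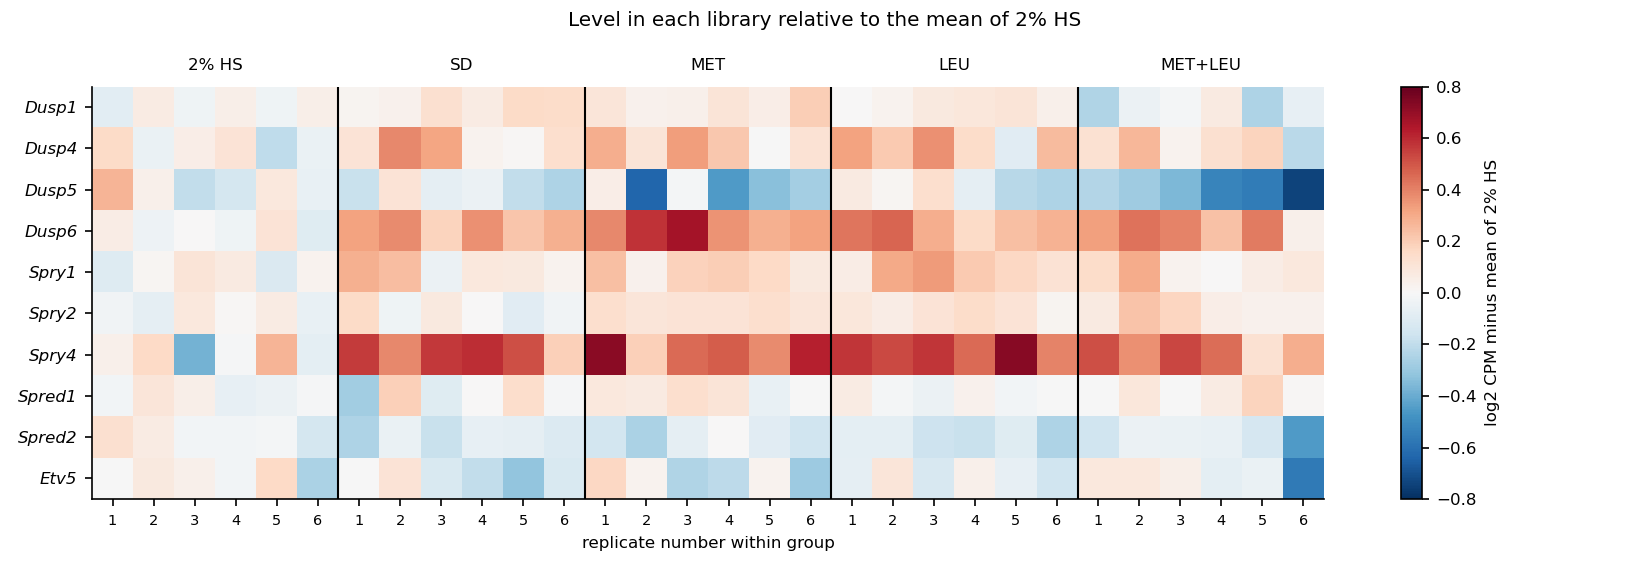
Log2 CPM of each gene in each of the 30 libraries minus the gene's mean in 2% HS, with red above and blue below, and columns labelled by replicate number within each group. Dusp6 and Spry4 are red in the groups without serum (Dusp6 only faintly in MET+LEU replicate 6), Dusp5 is blue in all 6 MET+LEU libraries, and MET+LEU replicate 6 is also blue in Dusp4, Spred2 and Etv5.

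The 10 genes did not vary as a block. Over the 30 libraries the 45 pairs had Pearson correlations of log2 CPM from -0.25 to 0.55, with a median of 0.12, on libraries that share group, depth and scaling. The highest were Dusp6 with Spry4 (0.55), Dusp4 with Dusp6 (0.54) and Dusp5 with Spred2 (0.50). With the group means removed, Dusp6 and Spry4 had a correlation of -0.05, so theirs lay between groups, while Dusp4 with Dusp6 kept 0.42 and Dusp5 with Spred2 kept 0.47. Within groups the pairs ran from -0.51 (Spry2 with Spred1) to 0.53 (Dusp4 with Dusp5), with a median of 0.17.

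Outside the 10, the genes whose log2 CPM followed a member most closely over the 30 libraries had correlations of 0.71 to 0.84 with it. Itpripl2 (0.84) and Shisa2 (0.84) came first for Dusp6, Uqcr11 (0.84) and Rps15 (0.82) for Spry2, and Mxd4 (0.81) and Cxcr6 (0.80) for Spry4. For Dusp1 they were Mxd3 (0.78) and Asf1b (0.77), for Dusp5 Znrf1 (0.76) and Arid5a (0.75), and for Dusp4 Klf4 (0.76) and Cdk2ap2 (0.75). Spry1 was followed most closely by Psmd3 (0.74) and Egr3 (0.72), Spred1 by Tlr4 (0.74) and Zfp800 (0.73), Spred2 by Zyg11b (0.74) and Got1 (0.71), and Etv5 by Mff and Slc16a11 (both 0.76). They were the highest and second highest of 15897 genes for each member, and values this high come partly from that choice.

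The next list held the remaining attenuators of the pathway together with other Etv transcription factor genes. It went both ways in SD vs. 2% HS, with 3 higher and 4 lower of 19 tested. Over all genes 13.9% were higher and 13.9% lower in this comparison, and the counts of the lists that follow stand beside the same shares. Etv1, a PEA3-family relative of Etv5, rose by 0.74 (SE 0.08, adjusted p = 9.91e-11), from a median of 12.6 CPM in 2% HS to 19.7 CPM in SD, with all SD libraries above all 2% HS libraries. Etv5 itself had a difference of -0.10. Rasa1, a GTPase-activating protein that switches Ras off, rose by 0.41 (adjusted p = 1.7e-09), and Dusp7, a cytoplasmic ERK phosphatase close to Dusp6, fell by 0.23 (adjusted p = 0.00423). Of the 19, 1 was higher and 2 were lower in MET+LEU vs. SD, where 10.6% of all genes were higher and 7.80% lower. Rasa1 rose by a further 0.23 (adjusted p = 0.000454). Erf, an ETS repressor that ERK exports from the nucleus, fell by 0.42 (adjusted p = 0.00627), with a median of 38.5 CPM in SD and 31.5 CPM in MET+LEU, where its lowest library was at 15.1 CPM. Of the phosphatases listed here as acting mainly on JNK and p38, 5 were tested. Only Dusp14 passed, with a fall of 0.36 in SD vs. 2% HS (adjusted p = 0.00205). Their substrates were not measured, and some may also act on ERK. None of those 5 passed in MET+LEU vs. SD with edgeR, and none had an unadjusted p under 0.05 there.

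Upstream, the adaptors, Ras, Raf, MEK, ERK and their nearest substrates had 6 higher and 4 lower of 27 genes in SD vs. 2% HS, with a median log2 difference of 0.04. Ksr1, a scaffold that holds Raf, MEK and ERK together, fell by 0.75 (adjusted p = 1.42e-13), from a median of 66.4 CPM in 2% HS to 41.5 CPM in SD. Elk3, an ETS partner of Srf, rose by 0.51 (adjusted p = 6.4e-13) and Mknk2, a kinase downstream of ERK, fell by 0.33 (adjusted p = 0.0130). In MET+LEU vs. SD, 1 of the 27 was higher and 2 were lower. The lower ones were Ksr1, which fell by a further 0.19 (adjusted p = 0.0316), and Srf, which fell by 0.16 (adjusted p = 0.0178). Srf, named after its values were seen, had also fallen by 0.19 in SD vs. 2% HS (adjusted p = 0.00189).

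Other genes transcribed on ERK activation had 8 higher and 1 lower of 17 in SD vs. 2% HS, with a median of 0.28 against 0.00 over all genes. Ccnd1, which encodes cyclin D1, rose by 1.19 (SE 0.09, adjusted p = 2.03e-14), from 8.43 to 20.8 CPM at the median. The matricellular gene Ccn1 rose by 0.47 (adjusted p = 1.42e-12), Jun by 0.37 (adjusted p = 3.16e-09) and Fos by 0.28 (adjusted p = 0.0201). Of the 17, 1 was higher and 2 were lower in MET+LEU vs. SD. Fos fell by 0.39 (adjusted p = 0.00277), from a median of 14.5 CPM to 11.1 CPM, and Jun rose by 0.15 (adjusted p = 0.0127).

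At the top of the pathway, the FGF receptors, co-receptors and ligands had 1 higher and 4 lower of 11 tested genes in SD vs. 2% HS. The receptor Fgfr2 rose by 0.91 (adjusted p = 1.89e-08) from a low level, 3.24 to 6.23 CPM at the median, while Fgfr1 fell by 0.39 (adjusted p = 1.17e-11). The ligand genes Fgf21 and Fgf2 fell by 1.01 (adjusted p = 3.22e-09) and 0.39 (adjusted p = 1.21e-05). Among other growth factor receptors, 2 were higher and 4 lower of 8. Pdgfra rose by 0.79 (adjusted p = 5.21e-12) and Pdgfrb by 0.18 (adjusted p = 0.000681), whereas Erbb3 fell by 0.28 (adjusted p = 6.27e-08) and Met by 0.14 (adjusted p = 0.00152). No gene of the FGF list passed in MET+LEU vs. SD with edgeR, although 4 of 11 had an unadjusted p under 0.05, beside 4961 of 15907 over all genes, and in the other receptor list 1 of 8 was lower and none was higher.

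**Figure D5:**
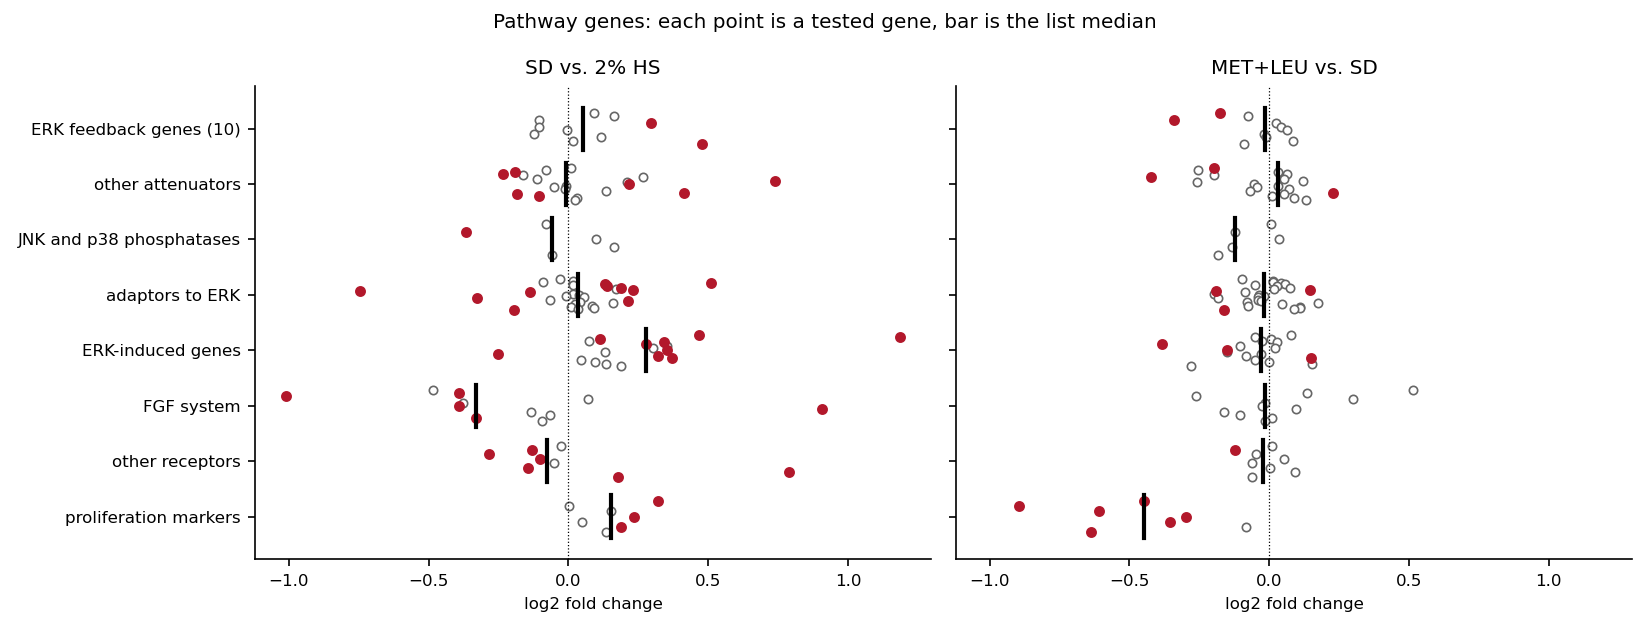
Log2 fold changes of the 10 feedback genes and of 7 other lists in SD vs. 2% HS (left) and MET+LEU vs. SD (right), 1 point per tested gene, filled red where the gene passed the threshold, with the list median as a black bar. The ERK-induced genes lie to the right in SD vs. 2% HS (median 0.28), and the proliferation markers lie to the left in MET+LEU vs. SD (median -0.45).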

How the data were processed

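RNA was measured in 30 C2C12 libraries. Per the labels and the study's methods, total RNA was depleted of ribosomal RNA, made into stranded libraries and sequenced with 150 × 150 bp reads. The submitters' processing notes name cutadapt 1.16, STAR 2.7.6a, featureCounts 1.6.3, DESeq2 1.30.1 and build GRCm38, while the annotation release and strand setting are not given in the sources used here. The authors deposited raw read counts per Ensembl gene, not normalized. Of 55487 identifiers, 55227 matched GENCODE M21. The 10 genes, the other lists and the tests were chosen with earlier results of these data known.

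Counts were analysed in R 4.3.3 with edgeR 4.0.16. Genes were kept by filterByExpr (minimum count 10, minimum total 15), libraries were scaled by TMM, and 1 mean per group was fitted to all 30 libraries (glmQLFit, robust). Each contrast used edgeR's quasi-likelihood test (glmQLFTest), with p-values adjusted over all 15907 genes by Benjamini-Hochberg and a threshold of 0.05. The SE is the absolute log2 fold change divided by the square root of F. Intervals are 95% and cover the spread of libraries, and a count of 0 allows up to 3 counts, for counting error only. Correlations used log2 CPM with a prior count of 2. Named genes of a pathway list were the 4 with the largest absolute log2 fold change over SD vs. 2% HS and MET+LEU vs. SD among those past the threshold. A gene that this rule names is not reported here. No 2 libraries were identical. The fit was tested on simulated counts with 200 genes changed 1.5-fold in MET+LEU. In MET+LEU vs. SD edgeR recovered 134 of them, with 5 false calls. Changes smaller than 1.5-fold, such as those of the 10 genes, were not simulated. Alternatives were DESeq2 1.42.0 (size factors or Wald test), limma-voom (limma 3.58.1), no filter beyond more than 5 counts in total, a replicate block in the fit, fits restricted to the libraries being compared, the fit of all groups without MET+LEU replicate 6, the longest transcript as gene length, and leaving out each library.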

Additional observations from a re-analysis of the deposited data

Results flagged for a closer look

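In MET+LEU, replicate 6 stood far from the other 5 libraries for 2 of the 10 genes. Spred2 was at 36.2 CPM in that library and at 44.4 to 47.9 CPM in the others. Etv5 was at 20.01 CPM in it and at 28.1 to 31.4 CPM in the others. The gap to the next library took a larger share of the group's range than Dixon's 95% critical value for 6 samples. In all, 50 sets of 6 libraries were examined and 2 were marked, and chance marks about 1 in 20. The same library held the highest share of ribosomal RNA counts, whose part in these 2 values was not tested. Without it, the log2 difference in MET+LEU vs. SD was 0.03 for Spred2 (adjusted p = 0.770) and 0.11 for Etv5 (adjusted p = 0.322).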

How the results depend on the processing

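The 2 calls in SD vs. 2% HS and the 0 calls in MET vs. SD, LEU vs. SD and the interaction kept their counts under DESeq2, limma-voom, no filter, fits of only the groups compared and the replicate block. In MET+LEU vs. SD the 2 genes became 1 with limma-voom and 0 in a fit of only these groups, and 1 to 2 without each library in turn. The 5 in MET+LEU vs. 2% HS became 3 in a fit of only these groups and 3 to 6 without each library. In MET vs. 2% HS the 4 became 7 without MET+LEU replicate 6 or with only these groups, and 3 to 5 without each library. In LEU vs. 2% HS the 5 became 3 to 5 without each library. There Spry2 was gained with limma-voom and with only these groups, and Spred2 was lost with DESeq2 size factors, the DESeq2 Wald test and no filter. The 1 in MET+LEU vs. MET became 0 with only these groups. The 1 in MET+LEU vs. LEU became 2 with DESeq2 size factors, the DESeq2 Wald test or the replicate block, 0 with only these groups and 0 to 2 without each library. Where a cause is not named it was not tested. Same-numbered libraries did not deviate together (mean correlation 0.0157, with 2 of 60 pairs over 0.1), so the numbers were not taken as pairs, and besides MET+LEU vs. LEU this block changed only the count in MET vs. 2% HS, from 4 to 6, with Dusp4 and Dusp5 gained. Log2 differences near 0 changed sign in some settings. With limma-voom they were -0.000357 for Spry2 and 0.0171 for Spred1 in SD vs. 2% HS, -0.00188 for Spred2 in MET vs. SD, -0.00933 for Spred1 in LEU vs. SD and 0.00191 for Etv5 in MET+LEU vs. 2% HS. Without the filter Spred1 was at 0.00114 in SD vs. 2% HS. Dusp1 in MET vs. SD was at 0.00151 (DESeq2 size factors), 0.00211 (DESeq2), 0.00546 (no filter), 0.00304 (only these groups) and 0.00182 (without MET+LEU replicate 6). Leaving out each library in turn also changed signs, over these ranges. For SD vs. 2% HS these were -0.0156 to 0.0331 for Spry2 and -0.0451 to 0.0465 for Spred1. For MET vs. SD these were -0.0220 to 0.0135 for Dusp1, -0.0170 to 0.0605 for Dusp4, -0.0449 to 0.0632 for Spry4, -0.0229 to 0.0324 for Spred2 and -0.0274 to 0.0718 for Etv5. For LEU vs. SD these were -0.00671 to 0.0538 for Dusp6, -0.0444 to 0.0498 for Spred1 and -0.0414 to 0.00376 for Spred2. For MET+LEU vs. SD these were -0.00911 to 0.0634 for Dusp6, -0.0600 to 0.0187 for Spry1, -0.0521 to 0.0281 for Spred2 and -0.000677 to 0.114 for Etv5. For MET+LEU vs. 2% HS these were -0.117 to 0.00658 for Etv5. Dusp5 and Spry4, at 59 to 189 counts per library, were the genes most limited by depth.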
